A study of Bos taurus with 16 samples.

Results

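The interaction of diet and pregnancy outcome asks whether the methylation difference between cows that did and did not become pregnant was itself different on the 2 diets. It was measured as the difference MET_P minus MET_noP, less the difference CON_P minus CON_noP, over all 16 of the 16 libraries of the series, 4 in each group. A positive value means that the step from no pregnancy to pregnancy was more positive under methionine than under the control diet, so that MET_P and CON_noP together lie above MET_noP and CON_P. It was computed at 199395 cytosine positions, at 8719 genes with at least 2 measured sites and at 26473 windows of 1 kb with at least 3 sites.

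The libraries hold endometrial cells of postpartum Holstein dairy cows, brushed from the uterus 4 to 8 h after the cows had been inseminated on days 50 to 64 after calving and profiled by reduced representation bisulfite sequencing (RRBS), which reads the methylation of CpG-rich fragments cut by MspI. CON cows received the basal diet alone and MET cows the same diet with rumen-protected methionine (RPM) from day 12 after calving, and cows of both diets were inseminated in the same way. Cows later found pregnant gave the CON_P and MET_P libraries, and cows found not pregnant gave CON_noP and MET_noP, so that the outcome was not known or assigned at sampling. The study's methods list more cytobrush samples than libraries, and more from cows found not pregnant than from those found pregnant, but how they were divided among the libraries is not given in the sources used here, so the spread between libraries may not be the spread between single cows.

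DNA methyltransferases place a methyl group on the cytosine of a CpG, and the methyl group comes from S-adenosylmethionine, which is made from dietary methionine. TET enzymes start its removal, and the mark is copied when a cell divides. In the uterus the luminal and glandular epithelium, the stroma and resident leukocytes each carry their own methylation pattern, so a cytobrush sample shows the average of the cells it gathered, and a change in the mix of cells and a change within cells cannot be told apart in it.

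Each percentage was put on the M scale, which is log2 of the methylated over the unmethylated percentage after adding 1 percentage point to each, and tested with limma, with Benjamini-Hochberg adjustment over all sites, genes or windows and a threshold of 0.05. Of the sites, 2 passed (0.00100% of those tested). Without adjustment 10467 sites had p under 0.05 (5.25%), of which 4112 had a positive interaction (2.06%) and 6355 a negative one (3.19%). No gene passed limma's adjusted threshold (0%), and 471 genes had an unadjusted p under 0.05 (5.40%), 222 positive (2.55%) and 249 negative (2.86%). A single window passed (1 window, 0.00378%), and 1454 had an unadjusted p under 0.05 (5.49%), 605 positive (2.29%) and 849 negative (3.21%). At each level the share with an unadjusted p under 0.05 was therefore close to 5%. Leaving out library 30 (CON_P) raised it most, to 788 genes, 2410 windows and 14391 sites. Centring each library on the same median M value changed the split of those genes from 47.1% to 61.3% positive.

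The site with the largest interaction of the pair that passed lies on chromosome 17 at position 63124677 (ARS-UCD1.2), in no annotated gene. The nearest site given to a gene is 3171 bp to the left, in SPPL3, an intramembrane protease. Methylation at this site was 97.0, 93.3, 98.8 and 87.5% in the CON_noP libraries and 69.0, 41.7, 68.8 and 76.3% in CON_P. It was 69.1, 75, 81.1 and 70.8% in MET_noP and 98.0, 98.9, 97.5 and 97.2% in MET_P. Every CON_noP and MET_P library thus lay above every CON_P and MET_noP library. Pregnancy went with 30.2 percentage points less methylation on the control diet and with 23.9 percentage points more under RPM, an interaction of 54.1 percentage points and of 6.80 ± 0.83 in M (SE; limma, adjusted p = 0.0229).

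The sites beside it did not share this pattern. At the site 16 bp to the left the interaction was 4.29 percentage points (limma, unadjusted p = 0.492), and at the site 3 bp to the right it was 5.51 percentage points (limma, unadjusted p = 0.456). Group means at these neighbours were between 91.6% and 98.2%. The called window, from 63124001 to 63125000 on chromosome 17, holds just these 3 sites, and its interaction of 21.3 percentage points (4.09 ± 0.53 in M, limma, adjusted p = 0.0190) rests on the middle one. When the M values of the 3 sites were averaged in place of the percentages, the adjusted p of the window was 0.857.

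The called site was thus a single cytosine whose nearest neighbours had an unadjusted p above 0.05. The genotype of the cows at this position, which can alter what bisulfite reads show there, was not analysed here.

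**Figure D1:**
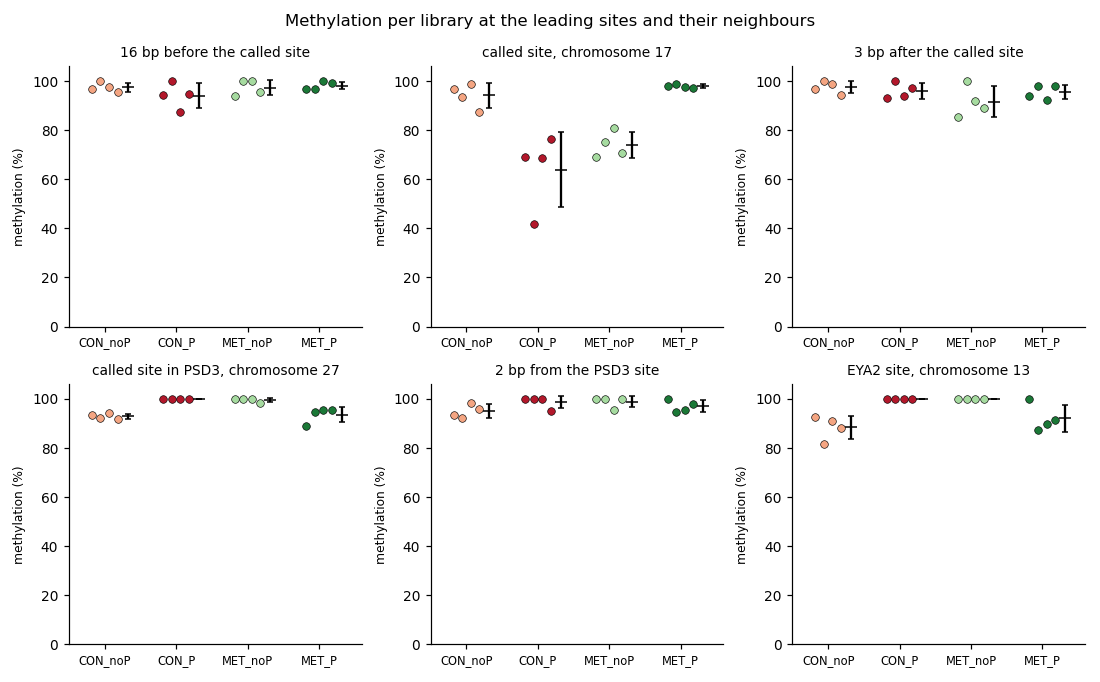
Methylation in percent (y axis) of each library (points) in the 4 groups (x axis), with the mean and SD beside the points, at the called chromosome 17 site and both of its neighbours, at the called PSD3 site and its nearest neighbour, and at the EYA2 site. The MET_P libraries sit between 97.2% and 98.9% at the called chromosome 17 site, where CON_P reaches down to 41.7%, while its neighbours at 16 and 3 bp lie near the top in all groups. At the PSD3 and EYA2 sites all CON_P libraries are at 100%.

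The other called site lies in PSD3 (ENSBTAG00000033137, chromosome 27, position 38936982), which encodes an exchange factor for the small GTPase ARF6. It had 93.5, 92.3, 94.1 and 91.8% in CON_noP and 100% in each of the 4 CON_P libraries. It had 100, 100, 100 and 98.2% in MET_noP and 88.9, 94.6, 95.5 and 95.7% in MET_P, so that both mixed pairs of groups were again separate, in the opposite direction to the chromosome 17 site. The interaction was -12.95 percentage points, or -5.61 ± 0.63 in M (SE; limma, adjusted p = 0.0150). Here the neighbours moved with it. All 10 other sites within 1 kb had a negative interaction, from -10.2 to -2.82 percentage points with a median of -6.99, and 7 of them had an unadjusted p under 0.05. They lie within 32 bp of the called site, on what can be a single MspI fragment, so they share reads and are not separate evidence. The mean of the 10 sites that fall in its 1 kb window was 93.0% in CON_noP, 98.2% in CON_P, 98.1% in MET_noP and 96% in MET_P, an interaction of -7.30 percentage points (limma, adjusted p = 0.887).

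In EYA2 (ENSBTAG00000013336, chromosome 13, position 75744227), a transcription coactivator with phosphatase activity, the 4 CON_P and the 4 MET_noP libraries were all at 100%. CON_noP had 92.9, 81.8, 90.9 and 88.2%, and MET_P had 100, 87.5, 89.7 and 91.3%. The interaction was -19.4 percentage points (limma, adjusted p = 0.0908), and both neighbours, 4 and 11 bp away, were negative with an unadjusted p under 0.05. One MET_P library at 100% kept the groups from being separate, and without it, library 15, the adjusted p was 0.000180.

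A further 6 of the sites with the lowest p had interactions of 6.05 to 12.6 percentage points in size. At the site in UBR4, a ubiquitin ligase, 5 of 16 neighbours shared its sign, at the site in RTTN, a centriole protein, 6 of 16, and at the site in KIFC1, a mitotic kinesin, 4 of 11. Sites without a gene on chromosome 16 (position 76481112), chromosome 22 (15306216) and chromosome 14 (61746414) had 6 of 9, 6 of 12 and 2 of 2 neighbours of their own sign. All 5 sites with a negative interaction had 100% in each CON_P library, and 18 of the 20 MET_noP values there were also 100%. A value of 100% made up 12.2% of all values in the table and 17% of the values at sites with an unadjusted p under 0.05. Neither called site passed on untransformed percentages (limma, adjusted p = 0.536 on chromosome 17 and 0.877 in PSD3).

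**Figure D2:**
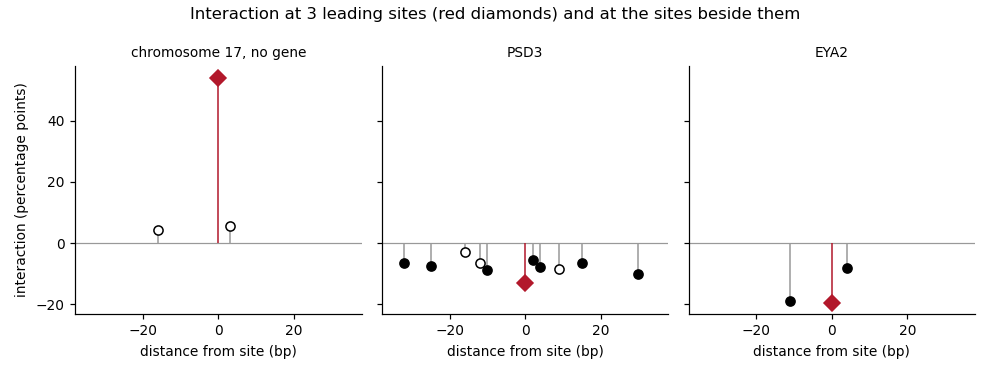
Interaction in percentage points (y axis) at 3 leading sites (red diamonds) and at the sites within 1 kb (circles, filled where the unadjusted p was under 0.05), by distance in bp (x axis). The chromosome 17 site stands alone at 54.1 percentage points, whereas the neighbours of the PSD3 and EYA2 sites share their negative sign.

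Over the whole table, neighbouring sites resembled each other in their interaction only at short range. Of pairs of successive sites 2 to 50 bp apart, 63.6% had the same sign, with a correlation across the 126563 pairs of r = 0.545. The share was 58.8% for sites 1 bp apart, which include the 2 strands of a CpG, 55.9% at 51 to 200 bp and 52.3% at 201 to 1000 bp. Beyond 1 kb it was 50.5%, with r = 0.0174. The pairs share libraries and, at short range, reads, so these values describe the table and carry no test.

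No library left out reversed the sign of any of the sites, genes or windows named here for their low p. Their choice on all 16 libraries favours this outcome. The 3 calls, in contrast, were not stable. Without library 16 (CON_noP), 13 (MET_noP) or 17 (MET_noP) neither site passed limma's threshold, with adjusted p of 0.0531, 0.105 and 0.0823 on chromosome 17 and of 0.0531, 0.0745 and 0.0594 in PSD3. The chromosome 17 site also lost its call without library 29 (MET_noP, 0.0683), 19 (MET_P, 0.0722) or 27 (MET_P, 0.0788). The window kept its call without library 28, 30, 17, 25 or 15, and without any of the other 11 libraries its adjusted p was between 0.0510 and 0.0820.

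Among genes, those with the lowest p that are named here, 9 positive and 10 negative, had interactions between -26.9 and 16.7 percentage points, none past the adjusted threshold. PRAF2 (ENSBTAG00000002562, chromosome X, 27 sites from 87154655 to 87156329), a membrane protein of the PRA1 family, was the best covered of the positive genes. Its mean methylation was 39.7, 26.6, 29.6 and 35.1% in CON_noP, 33.5, 24.5, 23.3 and 25.7% in CON_P, 29.5, 24.8, 23.9 and 30.6% in MET_noP and 43.3, 38.5, 35.0 and 34.8% in MET_P. The 4 MET_P libraries lay above all CON_P and MET_noP libraries but overlapped CON_noP. All 27 sites had a positive interaction, 6 with an unadjusted p under 0.05, and the gene's interaction was 16.7 percentage points, 1.10 ± 0.29 in M (limma, adjusted p = 0.877). Here and in the genes and windows below, the feature was chosen on the mean of its sites. Its sites also share libraries and, where close, reads, so tallies of their signs are not separate evidence.

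IGF2BP3 (2 sites), an oncofetal RNA-binding protein, was methylated at a low level, 17.1% ± 3.5 (SD, n = 4) in MET_P and 12.1% ± 3.6 in CON_noP, against 7.63% ± 3.4 in CON_P and 7.94% ± 3.4 in MET_noP, an interaction of 13.6 percentage points. UTP18, of the small-subunit processome, and PDXP, a pyridoxal phosphatase, were also near the bottom of the scale, with interactions of 6.71 and 7.18 percentage points. TRIM66, a tripartite-motif chromatin reader, had 95.0% ± 2.2 in MET_P and 84.0% to 88.9% in the other groups, an interaction of 10.6 percentage points, and was the only one of the 9 positive genes in which both diets had a difference of the same sign. NRXN3, a synaptic adhesion protein, had 86.7% ± 6.5 in CON_P and 92.6% to 94.5% elsewhere. SYNPO2, an actin-binding protein, TCF25 and KDELC1, a glycosyltransferase of the endoplasmic reticulum, lay above 94% in every group with interactions of 4.60 to 5.87 percentage points.

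The negative genes were led in size by ARHGEF3 (ENSBTAG00000014091, chromosome 22, 9 sites from 44070061 to 44150538), an exchange factor for RhoA. Its mean methylation was 32.6, 36.0, 36.9 and 30.9% in CON_noP and 59.8, 49.4, 48.9 and 37.0% in CON_P. It was 43.7, 39.1, 56.0 and 52.1% in MET_noP and 34.5, 40.8, 32.5 and 34.2% in MET_P. CON_P and MET_noP lay above CON_noP in all libraries, while MET_P overlapped each of the other groups. Pregnancy went with 14.7 percentage points more methylation on the control diet and 12.2 less under RPM, an interaction of -26.9 percentage points (-1.58 ± 0.36 in M, limma, adjusted p = 0.763). Of its 9 sites 8 were negative and 6 had an unadjusted p under 0.05. The study named a site of this gene among its largest on the control diet in these same libraries, so its direction is not independent of that choice.

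CX3CL1 (ENSBTAG00000024869, chromosome 18, 6 sites from 25383247 to 25387690), the chemokine fractalkine, had 10.2, 6.92, 7.21 and 7.45% in CON_noP and 17, 28.3, 19.9 and 12.5% in CON_P. It had 15.8, 23.6, 24.7 and 15.2% in MET_noP and 13.6, 10.03, 18.3 and 15.7% in MET_P. All CON_noP libraries lay below all CON_P and MET_noP libraries, and 1 MET_P library was within the CON_noP range. The interaction was -16.9 percentage points (-1.87 ± 0.41 in M, limma, adjusted p = 0.763), with 5 of the 6 sites negative at an unadjusted p under 0.05. It differed widely between the sets of consecutive libraries, from -35.0 to -4.61 percentage points.

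PRELP (12 sites), a small leucine-rich proteoglycan of the extracellular matrix, had 14.4% ± 3.1 (SD, n = 4) in CON_noP, 22.4% ± 5.6 in CON_P, 25.3% ± 5.2 in MET_noP and 17.5% ± 2.0 in MET_P, and 8 of its sites were negative with an unadjusted p under 0.05. ZBTB12 (3 sites), a zinc finger factor, had 29.9% ± 5.7, 43.0% ± 7.6, 42.9% ± 8.5 and 32.1% ± 3.2 in the same order. Their interactions were -15.8 and -23.8 percentage points. SHROOM3 (ENSBTAG00000019633, 38 sites on chromosome 6), which shapes epithelial cells at their apex, had 87.9% in CON_noP, 92.8% in CON_P, 93.0% in MET_noP and 90.3% in MET_P, and 33 of its 38 sites were negative. In all 3 genes CON_P and MET_noP had similar means and the other groups lay below them.

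ZMAT4, a zinc finger protein, and RPL3L, a ribosomal protein paralogue of muscle, had interactions of -14.0 and -9.96 percentage points. Among the highly methylated genes, ADI1 (7 sites), the acireductone dioxygenase of the methionine salvage pathway, had 98.8, 98.6, 98.3 and 98.2% in MET_noP, above all 12 libraries of the other groups, which were between 95.0% and 97.6%. Its interaction was -3.05 percentage points (-1.19 ± 0.27 in M, limma, adjusted p = 0.763). FUBP3, a single-strand DNA-binding regulator, had -4.36 percentage points and ZNF428, a zinc finger protein, -4.63. In 8 of the 9 positive and 10 of the 10 negative genes the interaction had the same sign in each of the 4 sets of consecutive libraries. Each set has 1 library of each group, and the exception was IGF2BP3. The genes were chosen on these same libraries, so this is no replication. Of all genes with an unadjusted interaction p under 0.05, 71.8% had the same sign in all 4 sets.

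**Figure D3:**
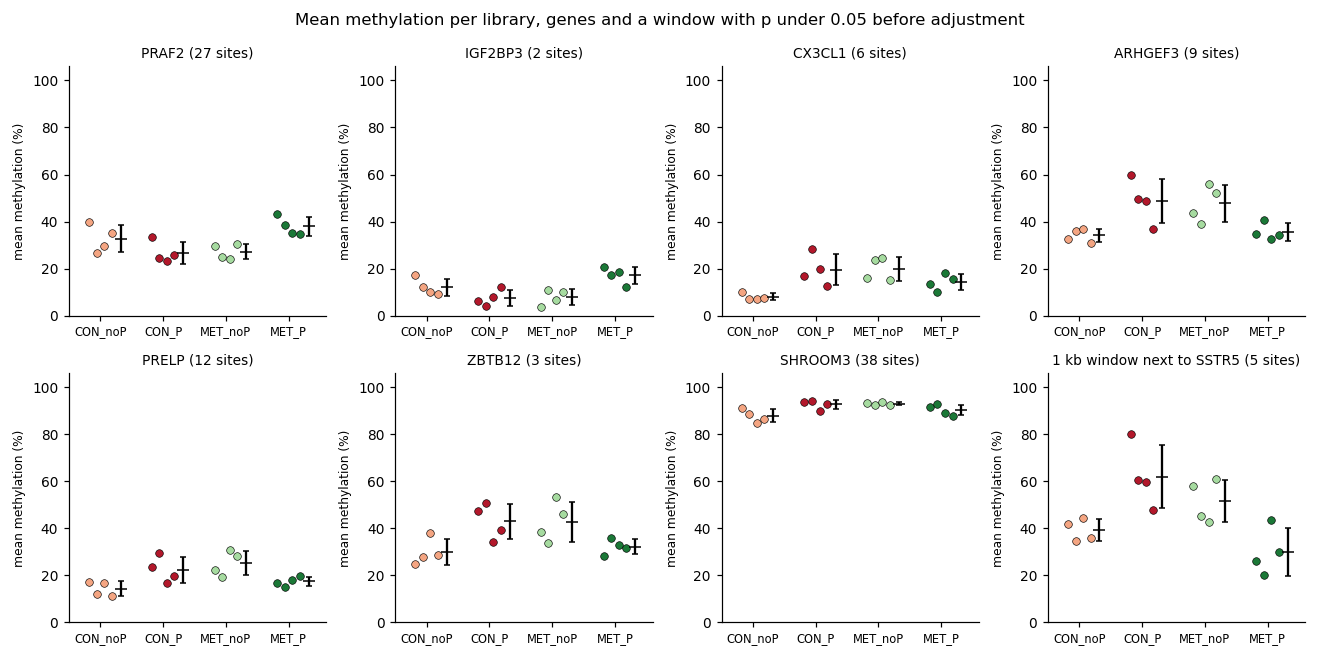
Mean methylation in percent (y axis) of each library (points) by group (x axis), with the mean and SD beside the points. Shown are 7 named genes and the chromosome 25 window, titled as next to SSTR5, whose last site is given to that gene. PRAF2 and IGF2BP3 are highest in MET_P, whereas CX3CL1, ARHGEF3, PRELP, ZBTB12, SHROOM3 and that window have higher means in CON_P and MET_noP than in CON_noP and MET_P.

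Of the windows, one on chromosome 25 (858001 to 859000, 5 sites) had the largest interaction of those named. Only its last site, at 858349, is given to a gene, the somatostatin receptor SSTR5 (ENSBTAG00000039974), and the other 4 to none. The window had 41.9, 34.8, 44.6 and 35.7% in CON_noP and 80, 60.7, 59.8 and 47.7% in CON_P. It had 58.0, 45.1, 42.9 and 61.0% in MET_noP and 25.9, 20.3, 43.8 and 29.9% in MET_P. CON_P lay above CON_noP in all libraries, and MET_P lay below MET_noP in 3 of 4 libraries, with 1 library just inside its range. The difference with pregnancy was 22.8 percentage points on the control diet and -21.7 under RPM, an interaction of -44.6 percentage points (-2.71 ± 0.59 in M, limma, adjusted p = 0.887), and each of the 5 sites had an unadjusted p under 0.05, from -62.0 to -35.1 percentage points. These sites span 53 bp.

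Other negative windows lay on chromosome 24 from 741001 to 742000, between sites of CTDP1 and NFATC1, with -21.8 percentage points, and on chromosome 18 from 13607001 to 13608000, with -16.0 percentage points. The first of them rests on the sites at 741956 and 741971, with -52.4 and -47.0 percentage points, while its 4 other sites, between 741025 and 741061, had -14.2 to 1.16, none with an unadjusted p under 0.05. Over all 6 sites of that window MET_P had 72.5% ± 2.3 (SD, n = 4) against 77.7% ± 5.1 in CON_noP, 85.3% ± 5.8 in CON_P and 86.7% ± 3.8 in MET_noP. On chromosome 1 from 153118001 to 153119000, between ANKRD28 and GALNT15, the CON_noP libraries had 87.8% to 92.2% and MET_P 87.8% to 90.1%, above all CON_P (80.7% to 87.5%) and MET_noP libraries (82.0% to 84.6%), an interaction of 12.6 percentage points (limma, adjusted p = 0.887). The PLCL2, TCF25 and chromosome 7 (108384001 to 108385000) windows had 2.53, 5.78 and 5.47 percentage points. The ZNF428 and PSD3 windows repeat the sites above.

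Where the interaction had an unadjusted p under 0.05, the difference with pregnancy nearly always had opposite signs on the 2 diets, in 94.9% of such sites, 96.4% of genes and 97.5% of windows. The contrast favours this arrangement, so these shares say little on their own. Over all genes tested, 55.2% had opposite signs, and the differences on the 2 diets, which share no library, had a correlation of r = -0.286 across genes, which are not independent. Full separation of the mixed pairs of groups, all CON_noP and MET_P libraries on one side of all CON_P and MET_noP libraries, occurred at 29 sites (0.0145% of all), 1 gene (0.0115%) and 6 windows (0.0227%).

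**Figure D4:**
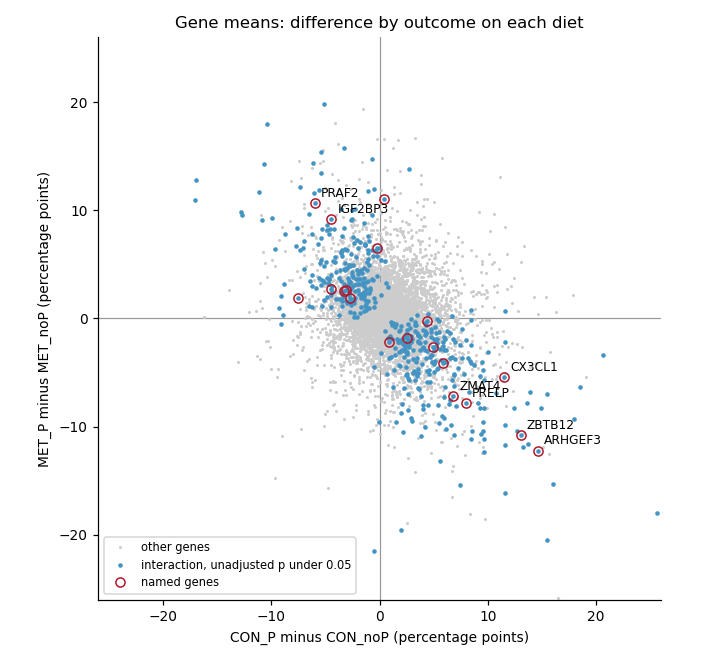
Difference in gene mean methylation between pregnancy and no pregnancy in percentage points on the control diet (x axis) and under RPM (y axis), 1 point per gene. The 471 genes with an unadjusted interaction p under 0.05 (blue) lie almost all in the quadrants of opposite sign, with ARHGEF3 and ZBTB12 farthest to the lower right and PRAF2 and IGF2BP3 to the upper left among the named genes (circled).

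No single group led among the genes with an unadjusted interaction p under 0.05. The group whose mean M was farthest from the mean of the other 3 was MET_P in 30.4% of them, CON_P in 24.8%, CON_noP in 24.6% and MET_noP in 20.2%, close to the 29, 24, 25.8 and 21.2% over all genes. These shares depended on single libraries. Without library 30 CON_P had 46.6% and MET_noP 9.39%, without library 17 (MET_noP) the same groups had 14.3% and 38.9%, and without library 24 (CON_noP) CON_noP had 37.3% and MET_P 19.3%. MET_noP had 30.5% without library 29. The windows gave 28.3% for MET_P, 26.1% for CON_P, 26% for CON_noP and 19.5% for MET_noP.

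Testing each group against the mean of the other 3 gave few calls. For sites, limma called 3 for CON_P (0.00150%), 2 for MET_noP (0.00100%), 1 for MET_P (0.000502%) and none for CON_noP (0%). Sites with an unadjusted p under 0.05 numbered 11277 for CON_P (5.66%), 10461 for CON_noP (5.25%), 9665 for MET_P (4.85%) and 8882 for MET_noP (4.45%). For genes it called 1 for CON_P (0.0115%) and none for the other groups (0%), and for windows 1 for CON_P (0.00378%) and none for the others (0%). The called gene and window were both ZNF428 (ENSBTAG00000012796, chromosome 18, 4 sites from 51829527 to 51829557), with 99.1, 100, 100 and 100% in CON_P and 91.2% to 98.2% in the other 12 libraries (limma, adjusted p = 0.0132 for the gene and 0.0228 for the window). The gene lost this call without library 18 or 26 of CON_P and on untransformed percentages. The called sites were in TH, which makes the first step of catecholamine synthesis, and at positions 31505316 of chromosome 12 and 46653421 of chromosome 29 for CON_P, in ENSBTAG00000048526 and ZNF653 for MET_noP and in NUP210, a nuclear pore membrane protein, for MET_P.

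Without adjustment, MET_P had the most genes with p under 0.05 against the rest, 620 (7.11%), of which 84.2% were higher in MET_P. CON_noP had 482 (5.53%) with 16.2% higher, CON_P 462 (5.30%) with 48.1% higher and MET_noP 406 (4.66%) with 58.6% higher. In 27 genes (0.310% of all tested) all 4 MET_P libraries lay outside the range of the other 12. This held in 8 genes for CON_noP (0.0918%), 7 for CON_P (0.0803%) and 5 for MET_noP (0.0573%). MET_P also had the smallest spread between its libraries, with a median SD over genes of 2.24 percentage points. The median SD was 2.48 in CON_noP, 2.97 in CON_P and 2.66 in MET_noP. A small spread favours such separation, and its part in these counts was not tested. Part of the direction moved with the overall level of the libraries. After each was centred on the same median, 64.3% of 532 genes were higher in MET_P and 51.7% of 412 in CON_noP, and without library 15 (MET_P) the count for MET_P was 410 genes. Without library 30 CON_P had 868 genes, and without library 16 CON_noP had 314.

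**Figure D5:**
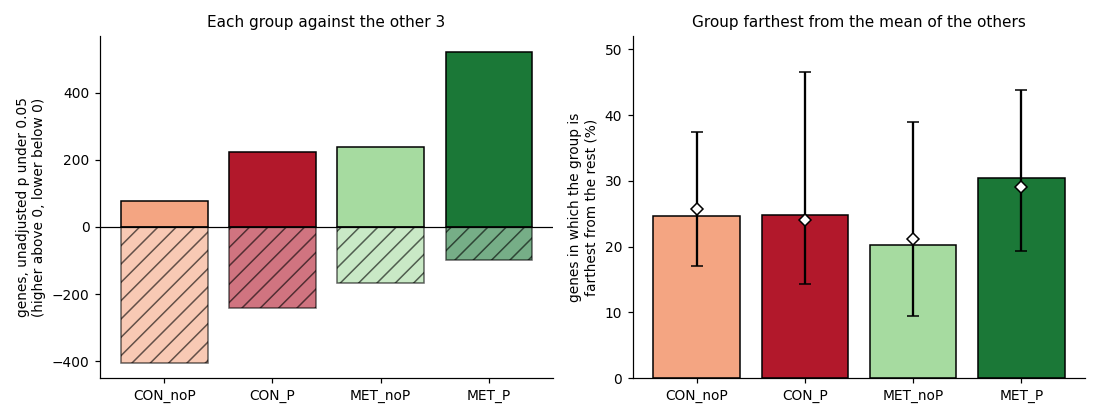
Left, number of genes (y axis) with an unadjusted p under 0.05 in each group against the other 3 (x axis), higher above 0 and lower (hatched) below 0. Right, percent of the 471 genes in which each group was farthest from the mean of the others (bars), with the same percent over all genes (diamonds) and the range when 1 library was left out (lines). MET_P has 620 genes on the left, most of them higher, while on the right the lines of all groups overlap.

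No interaction was detected in the mean level of the libraries. Averaged over all sites the mean was 62.5% ± 0.97 (SD, n = 4) in CON_noP, 63.5% ± 1.5 in CON_P, 63.8% ± 0.98 in MET_noP and 63.9% ± 0.52 in MET_P, an interaction of -0.863 percentage points (two-sided exact permutation test over 4900 relabellings within diets, p = 0.400). For sites with a mean of 20% to 80% it was -2.43 percentage points, for sites below that range -0.611, above it 0.157 and on chromosome X 1.39 (exact permutation tests, adjusted p of the 5 measures 0.623 to 0.761). Library 17 (MET_noP) and library 30 (CON_P) were each the lowest of their group at the intermediate sites, with 44.7% against 49.8% to 50.4% in the other MET_noP libraries and 44.8% against 45.8% to 52.7% in the other CON_P libraries.

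The gene lists held few interactions. Of the 20 measured genes of one-carbon metabolism and DNA methylation, none had an unadjusted p under 0.05, against 5.40% of all genes, and their median interaction was 0.583 percentage points against -0.0942 over all genes. The lowest p of a negative member was that of TET3, a dioxygenase that oxidizes methylcytosine, with -4.36 percentage points (limma, unadjusted p = 0.0867). None of the 16 imprinted genes had such a p either, with a median of -0.592 percentage points, and IGF2, a growth factor, and PEG3, a zinc finger protein, had 2.10 and -1.65 percentage points.

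Of the 17 measured prostaglandin and eicosanoid genes, 13 had a negative and 4 a positive interaction, where 48.1% of all genes were positive. Their median was -3.45 percentage points beside -0.0942 over all genes. An unadjusted p under 0.05 was found in 2 of them, both negative (11.8%, against 5.40% of all genes). ALOX15, a lipoxygenase, had 14.4% in CON_noP, 20.3% in CON_P, 19.3% in MET_noP and 17.1% in MET_P, an interaction of -8.05 percentage points. TBXA2R, the thromboxane receptor, had 60.4, 71.2, 59.2 and 52.4% in the same order and -17.6 percentage points. SLCO2A1, a prostaglandin transporter, had -20.4, and PTGS1, a cyclooxygenase, had the lowest p of the positive members with 20.5 percentage points. Limma's adjusted p was at least 0.893 for all 17.

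Beside the 5.40% of all genes, an unadjusted p under 0.05 was found in 25% of 12 interferon and antigen presentation genes, 4.40% of 91 extracellular matrix and integrin genes, 2.22% of 45 WNT genes and 3.70% of 27 receptivity and steroid response genes. In the first list, with a median of 2.18 percentage points, IRF9 (22.3 percentage points) and IRF2 (8.30) were positive and IRF4 (-7.75) negative with such a p. IRF9, a transcription factor of the type I interferon response, had 48.4% in CON_noP, 35.7% in CON_P, 35.5% in MET_noP and 45.0% in MET_P. Of the matrix genes, with a median of -0.597, 4 had such a p, the integrin ITGA4 (8.13) and the protease MMP11 (8.10) positive and COL14A1, a fibril-associated collagen (-3.99), and ADAMTS17 (-5.60) negative. Of the WNT genes, with a median of 0.773, WNT10B alone did, with -8.12 percentage points, and WNT5A had the lowest p of the positive ones with 4.80. Of the receptivity genes, with a median of 0.479, LGALS3, a galectin of the luminal epithelium, did, with -25.3 percentage points from 59.7% in CON_noP, 73.4% in CON_P, 70.5% in MET_noP and 58.9% in MET_P. None passed after adjustment.

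Markers of the cell types that a cytobrush can gather were measured beside these. The 12 epithelial markers had a median interaction of -5.14 percentage points, and none had an unadjusted p under 0.05. Of these markers 8 were negative and 4 positive, where 48.1% of all genes were positive. MUC1, an apical mucin, had 25.5% in CON_noP, 37.3% in CON_P, 33.3% in MET_noP and 25.2% in MET_P, and CLDN3, a tight junction protein, had the lowest p of the positive members with 6.55 percentage points. Their mean methylation was 32.1% to 38.1% over the CON_noP libraries, 29% to 43.4% in CON_P, 27.6% to 42.4% in MET_noP and 30.5% to 35.8% in MET_P, so that CON_P and MET_noP, higher on average, also spread widest, with libraries 30 and 17 at their lower ends. CX3CL1, ARHGEF3, PRELP, ZBTB12 and SHROOM3 also had their higher means in CON_P and MET_noP. They were chosen for a negative interaction, which by its definition sets these groups higher, so this likeness was fixed by their choice. The part of the epithelial share in these genes was not tested. Of the defining epithelial markers CDH1, an adhesion protein, was at 6.12% to 7.75% in all groups, and KRT8, KRT18 and EPCAM were not among the genes tested.

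The 9 stromal markers had a median of -0.273 percentage points and the 22 leukocyte markers 0.374, none with an unadjusted p under 0.05. VIM and HAND2 had the lowest p of the stromal markers with 2.60 and -4.75 percentage points, and IKZF1, a lymphoid transcription factor, and the integrin ITGB2 those of the leukocyte markers with 6.55 and -8.10. PTPRC, the pan-leukocyte phosphatase CD45, had 63.1% in CON_noP, 64.7% in CON_P, 62.4% in MET_noP and 70.6% in MET_P. The stromal mean was between 39.2% and 44.1% in all libraries and the leukocyte mean between 50.6% and 59.3%.

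The study itself had listed genes for both diet and outcome, chosen on these libraries, so their direction is no independent evidence. Of the 18 measured here, 15 had a negative and 3 a positive interaction, where 48.1% of all genes were positive. None had an unadjusted p under 0.05, and the median was -1.58 percentage points. CAMK2B, a calmodulin-dependent kinase, had the lowest p with -4.81 percentage points (limma, unadjusted p = 0.0777, adjusted p = 0.894). CUX1 (-3.70), the lipid transfer protein STARD10 (-7.63), the centrosomal CDK5RAP2 (-2.29), the ribosomal RNA gene RF00002 (-7.73), the collagen COL5A1 (-2.18), the calcium channel CACNA1H (-2.72), AGO2 of RNA silencing (-2.08) and LY86 (-2.04) were also below -2 percentage points. RGS3, ZMIZ1, CCDC88C, AFF3, COL4A2 and NFIX lay between -1.12 and -0.0450 percentage points, and ZNF75D (1.62), the acetyltransferase KAT2B (0.605) and TBL1X (0.276) were positive. NFIX, a nuclear factor I protein with 114 sites, was 51.0% in CON_noP, 52.8% in CON_P, 57.9% in MET_noP and 59.7% in MET_P, so that its difference with pregnancy was 1.81 and 1.76 percentage points on the 2 diets.

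Genes that the study listed under RPM alone necessarily lean toward an interaction, because the same MET libraries chose them. The 2 lists used here hold only the 41 and 40 genes that its text named by gene family, a part of those it reported. Of those listed as higher with pregnancy, 29 of 36 had a positive interaction, with a median of 1.89 percentage points, and of those listed as lower, 38 of 39 were negative, with a median of -3.86. Over all genes 48.1% were positive. An unadjusted p under 0.05 was found in 5.56% of the first list and 5.13% of the second, close to the 5.40% of all genes. In the first list these were ITGA4 and SLC12A5 (5.37 percentage points), a neuronal chloride transporter. In the second they were the anion exchanger SLC4A3 (-8.73) and the phosphate transporter SLC20A2 (-9.97). ARHGAP22, which acts on Rac, was the positive member of the second list, with 1.80 percentage points. Of the 18 genes holding the study's largest single sites on the control diet, 3 were positive and 15 negative, with a median of -2.09 percentage points. ARHGEF3 and the phosphatase DUSP18 (-9.17) had an unadjusted p under 0.05 (11.1% of the list, against 5.40% of all genes). PRDM16, a transcription factor, had the lowest p of the positive ones with 3.38. Of the 36 such genes under RPM, with a median of -1.42, 13.9% had such a p. VOPP1 (8.94) and APLN (9.25), a vasoactive peptide, were positive, and SLC4A3, the glycolytic enzyme ENO1 (-21.6) and CNIH3 (-9.46) negative. None passed after adjustment. Reading a listed site in the diet that did not choose it avoids this in part. Of the 31 sites listed with at least 30 percentage points on the control diet, 9 had the same sign under RPM (29%), and of the 80 listed under RPM, 16 had the same sign on the control diet. Over all sites the share with the same sign on both diets was 46.2%. Listed sites that lie in the same gene can share reads, so they are not separate observations, and no test was made on them. In the diet that did not choose them the median difference, taken in the listed direction, was -3.31 percentage points for the first and -6.47 for the second. The site in AFF3, a nuclear elongation factor (chromosome 11, position 4975503), was an exception and had 30.3 percentage points more with pregnancy on the control diet and 49.3 more under RPM, whereas a site in ENTPD8, an ectonucleotidase, had 26.1 more on the control diet and 31.5 less under RPM.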

How the data were processed

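Reduced representation bisulfite sequencing was done on 16 libraries of bovine endometrial cells, 4 in each of CON_noP, CON_P, MET_noP and MET_P. Per the labels, the submitters used Trim Galore, Bismark and SAMtools with ARS-UCD1.2. The values deposited by the authors are the percent methylation of each cytosine position in each library, after the runs of a library were merged and positions without a valid value or at zero were dropped, with no normalization between libraries. Dropping positions at zero in any library can remove sites that are unmethylated in a single group. The read counts are not part of these values, so the depth at each site is unknown beyond the authors' minimum of 10 read counts per position. No counting error can be given, and the logistic regression on counts used by the study could not be repeated. Depth was not equal between groups. The paper reports the most raw reads per replicate in MET_P and the fewest in CON_P, and after trimming the most bases in MET_noP. Its part in the group differences was not tested. Columns were matched to groups by the group name above them and carry no replicate number.

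Each percentage was turned into M = log2((percent + 1)/(100 - percent + 1)) and fitted with limma 3.58.1 in R 4.3.3 with 4 group means over all libraries, no covariate, moderation without trend, Benjamini-Hochberg adjustment and a threshold of 0.05. Gene values were means over the sites of an Ensembl gene with at least 2 sites on 1 chromosome within 2.5 Mb, and windows were 1 kb with at least 3 sites. Each group was also set against the mean of the other 3. For library means, exact permutation (two-sided) of the outcome within each diet was used. The scripts were tested on simulated data. The R package data.table (1.17.8) read the deposited values. Figures were drawn in Python 3.11.15 with matplotlib 3.10.9.

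The text names the 5 sites, 10 genes and 5 windows with the lowest p in each direction, every gene that the study listed for diet and outcome, and of each other list the members with the lowest p in each direction. A few items that meet this rule are not reported here. Other members past an unadjusted p of 0.05, SLCO2A1, PTPRC, CDH1 and the sites in AFF3 and ENTPD8 were picked with their values already in view. The comparison, the gene lists and the sites were chosen with earlier results of these data known. Pairs of neighbouring sites and positions read in the other diet are descriptions without a test. Libraries within a group correlated at 0.914 to 0.964 across sites, and no 2 were identical. Exons, introns and other features were not analysed here because no annotation of the build was used.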

Additional observations from a re-analysis of the deposited data

Results flagged for a closer look

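The interaction itself was tested and passed the adjusted threshold of limma at the chromosome 17 site (54.14 percentage points), the PSD3 site (-12.95 percentage points) and the chromosome 17 window (21.32 percentage points). Each is a difference between the diets in the difference with pregnancy. Of 180 groups of 4 libraries looked at over the named features and the library means, 17 had a highest or lowest library set off from the other 3 by Dixon's test at 95%, from 10 libraries. Chance alone flags about 1 in 20 groups, and features that share sites are not independent.

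In 11 of the 17 the other 3 libraries were all at 100%, so that any value below it is set off. These were, in CON_noP, 96.67% at the chromosome 16 site, 96.15% at the chromosome 14 site, 97.14% at the KIFC1 site and 98.33% in the TCF25 gene and again in its window. In MET_P they were 97.87% at the chromosome 14 site and 95% at the KIFC1 site, in MET_noP 98.21% at the PSD3 site and 98.59% at the chromosome 22 site, and in CON_P 99.11% in the ZNF428 gene and again in its window. Of the rest, a MET_P library had 88.89% at the PSD3 site against 94.6% to 95.7% in the others, and a CON_noP library had 95.3% in NRXN3 against 93.8% to 93.9%. A CON_noP library had 10.19% in CX3CL1 against 6.92% to 7.45%, and library 30 (CON_P) had 76.72% in the chromosome 24 window against 87.8% to 88.5%. Library 17 (MET_noP) was low in mean methylation over all sites, 62.38% against 64.3% to 64.4%, and over sites with a mean of 20% to 80%, 44.68% against 49.8% to 50.4%.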

How the results depend on the processing

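No tested difference changed sign under any alternative. The named features were chosen for a low p, which favours a stable sign. Centring nevertheless turned the majority direction of the genes with an unadjusted p under 0.05 for the interaction (47.1% to 61.3% positive), for CON_noP (16.2% to 51.7% higher) and for MET_noP (58.6% to 43.9% higher). No gene passed for the interaction under any alternative that kept all libraries. The 2 called sites became 0 on untransformed percentages, 25 with an offset of 0.1 percentage points, 1 with a trend in the moderation, and 1 among sites with a mean of 10% to 90%. The called window became 0 on untransformed percentages, with the offset of 0.1, at a mean of 10% to 90%, with at least 5 sites and with averaged M values, and stayed 1 with robust moderation, centring, shifted windows and windows of 500 bp. The called CON_P gene became 0 on untransformed percentages. Some alternatives tested fewer features. Restriction to a mean of 10% to 90% left 6081 sites and 870 windows with p under 0.05 before adjustment. A minimum of 5 sites left 305 genes and 730 windows. The sizes of these smaller sets are not given here, so the lower counts alone do not show a weaker signal. The median over the sites and the removal of chromosome X and mitochondrial sites left the interaction of library means within the spread.

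Leaving out 1 library gave 0 to 6 called sites, 0 to 1 genes and 0 to 1 windows, and 9084 to 14391 sites, 372 to 788 genes and 1185 to 2410 windows without adjustment. The interaction of library means was between -1.35 and -0.321 percentage points. Against the other 3 groups the calls were 0 to 1 genes for CON_P and for MET_P (1 without library 15, adjusted p = 0.0297) and 0 for the other groups, and the unadjusted counts 338 to 868 genes for CON_P, 314 to 622 for CON_noP, 410 to 779 for MET_P and 307 to 596 for MET_noP. The share of genes in which a group was farthest apart was 14.3% to 46.6% for CON_P, 17% to 37.3% for CON_noP, 19.3% to 43.8% for MET_P and 9.39% to 38.9% for MET_noP, and of windows 16% to 50.0%, 18.9% to 38.6%, 20.7% to 40.2% and 9.59% to 36.7%. The causes were not tested.

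No paired analysis by replicate number was possible because the columns carry none. A replicate block by sets of consecutive library numbers left 0 sites (lowest adjusted p = 0.105), 0 genes and 0 windows (0.109), but libraries of the same set did not deviate together (mean correlation 0.00238 over 24 pairs, from -0.0615 to 0.0627). The depth at each site is unknown, so a difference within the spread of 4 libraries is not shown to be absent. Values near 100% weigh more on the M scale than in percentage points.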
